A study of Mus musculus with 8 samples.

Results

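The genes described are 10 feedback regulators of the MAP kinase pathways: the dual-specificity phosphatases *Dusp2*, *Dusp4*, *Dusp5* and *Dusp6*, the Sprouty genes *Spry1* and *Spry2*, the Sprouty-related genes *Spred1* and *Spred2*, and the immediate early genes *Ier2* and *Ier3*. They were taken by symbol from count tables of 24059 gene symbols. All 10 had a row, and all 10 were among the 14934 genes tested after edgeR's count filter.

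The cells were bone marrow–derived mast cells (BMMCs) of C57BL/6 mice, which are mast cells grown from whole marrow with IL-3 for at least 4 wk, here from mice that the methods give as 6 to 8 wk old. Cells of 4 mice were electroporated with Cas9-gRNA ribonucleoproteins (RNPs) and kept in culture for 1 wk before RNA was extracted, without a stimulus. The Scrambled group (4 samples, genotype label Zc3h12a WT) received Cas9 with a non-targeting guide, and the *Zc3h12a* RNP group (4 samples, genotype label Zc3h12a KO) received Cas9 with guides against *Zc3h12a*, the gene of the RNase Regnase-1, for which the methods list 3 crRNAs. Each sample is a pool of transfected cells and not a clone, and the share of edited cells in these samples is not given in the sources used here. The question put to the 10 genes was how their mRNA levels varied among the 8 samples and whether they differed between the RNPs within a replicate number.

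MAP kinase pathways carry signals from receptors such as KIT and the high-affinity IgE receptor of mast cells to the nucleus. Active RAS recruits RAF, which phosphorylates MEK, which phosphorylates ERK, and ERK then raises the transcription of immediate early genes. Among the induced genes are inhibitors of the same pathway. Dual-specificity phosphatases remove phosphate from the activation loop of the kinases, whereas Sprouty and Spred proteins act upstream, at the level of RAS and RAF. The mRNAs of many of these inhibitors are short-lived, so their levels are often read as a record of recent pathway activity.

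Sequence of 5 of the genes is shown first, because the largest spread of levels was that of *Dusp5* and because Regnase-1 is known to cleave stem-loops with a pyrimidine-purine-pyrimidine loop in 3′ UTRs. RefSeq's promoter table (GRCm38.p6) held 8 of the 10 promoters, each a window around the gene start, without *Dusp4* and *Ier2*. The CArG box, the site of serum response factor, was found on either strand in 1.63% of 32851 promoters in that table, and 6 promoters held 2 or more. Among the 8 promoters, only that of *Dusp5* had a CArG box. It had 2 adjacent boxes, starting 82 and 72 bases before the RefSeq start. The stretch from 130 to 51 bases before that start matched GRCm39 once, at chr19:53517446-53517525 on the plus strand, upstream of the annotated gene. It is printed with both boxes in capitals.
Dusp5 promoter stretch: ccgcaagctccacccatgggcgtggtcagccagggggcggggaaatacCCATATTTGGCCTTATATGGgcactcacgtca
The cyclic AMP response element (TGACGTCA, in 1.79% of the promoters) and the AP-1 site (TGANTCA, in 7.81%) were searched on both strands and matched none of the 8. These matches are of letters only, and no binding was measured here.

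In the 3′ UTRs of the canonical GENCODE transcripts (GRCm39), 4 of the 10 genes (40%) held a stem-loop of 5 or more Watson-Crick pairs around a pyrimidine-purine-pyrimidine loop, beside 23.2% of 20516 annotated 3′ UTRs. They are shown with the loop in capitals, because they are the letters closest to the known Regnase-1 motif. The *Dusp2* element is at chr2:127180194-127180206 (plus strand), the *Spry2* element at chr14:106129721-106129735 (minus strand), the *Spred1* element at chr2:117010123-117010135 (plus strand) and the *Ier3* element at chr17:36133767-36133779 (plus strand).
Dusp2: ggcccTGTgggcc
Spry2: atattaTACtaatat
Spred1: tttcaCATtgaaa
Ier3: tgttcTGTgaaca
The AU-rich pentamer ATTTA, a known element of short-lived mRNAs, was in 9 of the 10 3′ UTRs (90%) beside 68.5% of all. It was densest in *Ier3* (5 copies in 616 bases) and *Dusp2* (4 in 584 bases), and the 3′ UTR of *Ier2* (758 bases) had none.

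Total counts were 19610240 to 33986762 in Scrambled samples and 23712029 to 28564062 in *Zc3h12a* RNP samples. Levels are given as CPM, counts scaled to the TMM-normalized library size, as mean ± SD over n = 4 samples a group. *Zc3h12a* itself was at 34.8 ± 6.65 CPM in Scrambled and 33.2 ± 5.91 CPM in *Zc3h12a* RNP samples, a log2 fold change of -0.064 (SE 0.097), higher in 2 of 4 pairs. By an exact two-sided sign-flip test over the 4 pairs its p was 0.625, where 0.125 is the least this design allows. The group labels thus find no check in the mRNA level of the targeted gene. The paper reports, by Western blot, that RNPs against this gene were highly effective in depleting its protein in mast cells. An mRNA level does not measure that protein, and its loss in the samples described here was not tested. Summed mast cell markers (10 genes, led by *Cpa3*) were at 50959 to 60797 CPM in Scrambled and 49117 to 52068 CPM in *Zc3h12a* RNP samples. Of these, 9 of 10 had a negative log2 fold change, beside 6299 of all 14934 genes tested. Their median was -0.12, and 3 of 10 were lower in all 4 pairs, beside 8.54% of all genes tested. None was called (0 of 10), beside 0% of all genes tested. The basophil list (4 genes) summed to 445 to 542 CPM over all samples, of which *Cd200r3* alone had a mean of 494 CPM. Its other genes, *Mcpt8*, *Prss34* and *Itga2*, reached at most 8.51, 2.25 and 0.857 CPM. Macrophage markers (6 genes) summed to at most 10.2 CPM and lymphocyte markers (6 genes, with *Cd8a* at 0 in all samples) to at most 5.71 CPM. Neutrophil markers (2 of 6 genes listed) summed to at most 0.333 CPM. In RNA from whole cultures, fewer cells with a transcript and less transcript per cell cannot be told apart.

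The 10 genes ranged from the 14.4th to the 99.9th percentile of expression among the genes tested. All but *Spry1* and *Dusp2* lay from the 63.9th percentile (*Spry2*) upward. Compared per kilobase of annotated exon, as CPM per kb over all 8 samples (mean ± SD), *Ier3* (1440 ± 466) and *Ier2* (695 ± 292) stood at the top, both at the 99.9th percentile of the genes tested. *Dusp5* (60.4 ± 44.3), *Spred1* (45.5 ± 21.9) and *Dusp6* (32.5 ± 10.9) followed. *Dusp4* (14.6 ± 5.11), *Spred2* (12.1 ± 8.14) and *Spry2* (5.01 ± 2.42) were intermediate. *Spry1* (1.43 ± 1.23, the 40.6th percentile) and *Dusp2* (0.218 ± 0.122, the 14.4th percentile) were the lowest. *Ier3* was above *Ier2* in 8 of 8 samples, *Ier2* above *Dusp5*, *Dusp6* above *Dusp4*, *Spred2* above *Spry2*, *Spry2* above *Spry1* and *Spry1* above *Dusp2* likewise. *Dusp5* was above *Spred1* in 4 of 8 samples and *Dusp4* above *Spred2* in 4 of 8, so the means of these neighbours lay within their spread over all samples. In both cases the order turned with the replicate number, the phosphatase being the lower of the pair in replicates 1 and 2 and the higher in 3 and 4, with either RNP. *Spred1* was above *Dusp6* in 7 of 8.

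**Figure D1:**
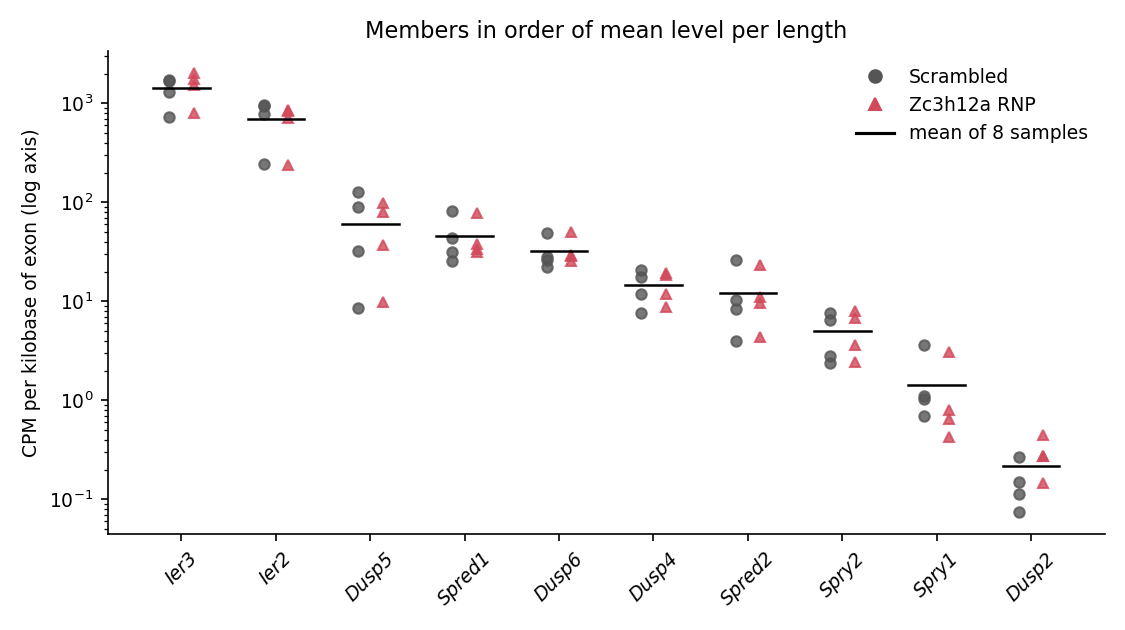
Level of each of the 10 genes in CPM per kilobase of exon (log axis), with one point per sample (grey circles Scrambled, red triangles *Zc3h12a* RNP) and a black bar at the mean of 8 samples. The order runs from *Ier3* (mean 1440) to *Dusp2* (mean 0.218), and the points of *Dusp5* and *Spred1*, like those of *Dusp4* and *Spred2*, overlap.

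*Dusp5*, on chromosome 19 (53517532 to 53530862, GRCm39), encodes a nuclear phosphatase specific for ERK. It was at 21.1, 79.8, 315 and 224 CPM in Scrambled replicates 1 to 4 and at 24.2, 92.6, 245 and 198 CPM in *Zc3h12a* RNP replicates 1 to 4. Replicate 1 was lowest and replicate 3 highest with either RNP, and the groups overlapped almost fully. From the lowest to the highest sample the level differed 14.9-fold, the widest span of the 10 genes. The log2 fold change between RNPs was -0.042 (SE 0.116).

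*Dusp6*, on chromosome 10 (99086564 to 99103361), encodes the cytoplasmic phosphatase of ERK. Its level was 94.2, 167, 75.7 and 89.3 CPM in Scrambled replicates 1 to 4, and 86.5, 171, 98.9 and 98.5 CPM in the *Zc3h12a* RNP samples in the same order. Only replicate 2 stood out, and it did so with both RNPs. The span was 2.25-fold, the narrowest of the 10, and the log2 fold change between RNPs was 0.11 (SE 0.098). The ratio of *Dusp5* to *Dusp6*, per kilobase, was 0.306, 0.654, 5.69 and 3.42 in Scrambled replicates 1 to 4 and 0.382, 0.742, 3.38 and 2.74 in *Zc3h12a* RNP replicates 1 to 4. *Dusp6* was thus the more abundant of the ERK-specific pair in replicates 1 and 2, and *Dusp5* in replicates 3 and 4, with either RNP.

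*Dusp4*, on chromosome 8 (35274442 to 35287048), encodes a nuclear phosphatase that acts on ERK, JNK and p38. Scrambled samples had 21.9, 59.9, 51.1 and 34.1 CPM and *Zc3h12a* RNP samples 25.4, 55.6, 53.4 and 34.5 CPM in replicates 1 to 4. The order of the replicate numbers was 2, 3, 4 and 1 from the highest down in both groups. *Dusp2*, on chromosome 2 (127177957 to 127180296), encodes the nuclear phosphatase PAC-1 of activated leukocytes. It had only 10, 17, 4 and 5 counts in Scrambled and 9, 22, 14 and 18 counts in *Zc3h12a* RNP replicates 1 to 4. These counts correspond to 0.320 ± 0.177 and 0.606 ± 0.264 CPM. The log2 fold change of *Dusp2*, 0.94, was the largest of the 10 in size but had an SE of 0.65, and the counts of the groups overlapped.

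*Spry1* and *Spry2* encode Sprouty proteins, which dampen RAS-ERK signalling downstream of receptor tyrosine kinases. *Spry1*, on chromosome 3 (37693897 to 37698755), was at 4.88, 17.4, 5.24 and 3.33 CPM in Scrambled replicates 1 to 4 and at 3.09, 14.8, 3.82 and 2.01 CPM in *Zc3h12a* RNP replicates 1 to 4 (62 to 522 counts). Replicate 2 was far above the others with either RNP, and within every replicate number the *Zc3h12a* RNP sample was the lower one. *Spry2*, on chromosome 14 (106128766 to 106136446, minus strand), was at 12.3, 33.4, 39.1 and 14.4 CPM in Scrambled and at 12.6, 35.2, 40.7 and 18.5 CPM in *Zc3h12a* RNP samples. It was high in replicates 2 and 3 and low in 1 and 4. The ratio of *Spry2* to *Spry1* per kilobase therefore ranged from 1.78 (Scrambled replicate 2) to 9.87 (*Zc3h12a* RNP replicate 3), with *Spry2* the higher in all 8 samples.

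*Spred1* and *Spred2* encode membrane-associated proteins that hold back RAS, *Spred1* by bringing neurofibromin to the membrane. *Spred1*, on chromosome 2 (116951524 to 117018277), was at 337, 629, 248 and 199 CPM in Scrambled replicates 1 to 4 and at 293, 612, 263 and 245 CPM in the *Zc3h12a* RNP samples. *Spred2*, on chromosome 11 (19874355 to 19974442), was at 51.3, 159, 62.3 and 24.1 CPM in Scrambled and at 68.0, 140, 58.4 and 26.5 CPM in *Zc3h12a* RNP samples. Both genes were highest in replicate 2 and lowest in replicate 4 in each group. *Spred1* exceeded *Spred2* per kilobase 3.11 to 7.25-fold in every sample.

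*Ier2* and *Ier3* encode small products of immediate early genes. IER2 is a nuclear protein, and IER3 is an ERK substrate linked to cell survival that prolongs ERK phosphorylation. *Ier2*, a single exon on chromosome 8 (85387960 to 85389483, minus strand), was at 370, 1184, 1470 and 1428 CPM in Scrambled replicates 1 to 4 and at 362, 1074, 1307 and 1279 CPM in *Zc3h12a* RNP replicates 1 to 4. *Ier3*, on chromosome 17 (36132568 to 36133815), was at 834, 1951, 1908 and 1481 CPM and at 911, 1989, 2324 and 1727 CPM in the same order. Replicate 1 was the lowest for both genes with both RNPs, and the 2 groups overlapped. Within pairs the genes lay on opposite sides. *Ier2* was the lower after *Zc3h12a* RNP in 4 of 4 pairs and *Ier3* the higher in 4 of 4. Their ratio per kilobase (*Ier3* to *Ier2*) ran from 1.39 to 3.02 in Scrambled and from 1.81 to 3.36 in *Zc3h12a* RNP samples, and was highest in replicate 1 and lowest in replicate 4 with either RNP.

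**Figure D2:**
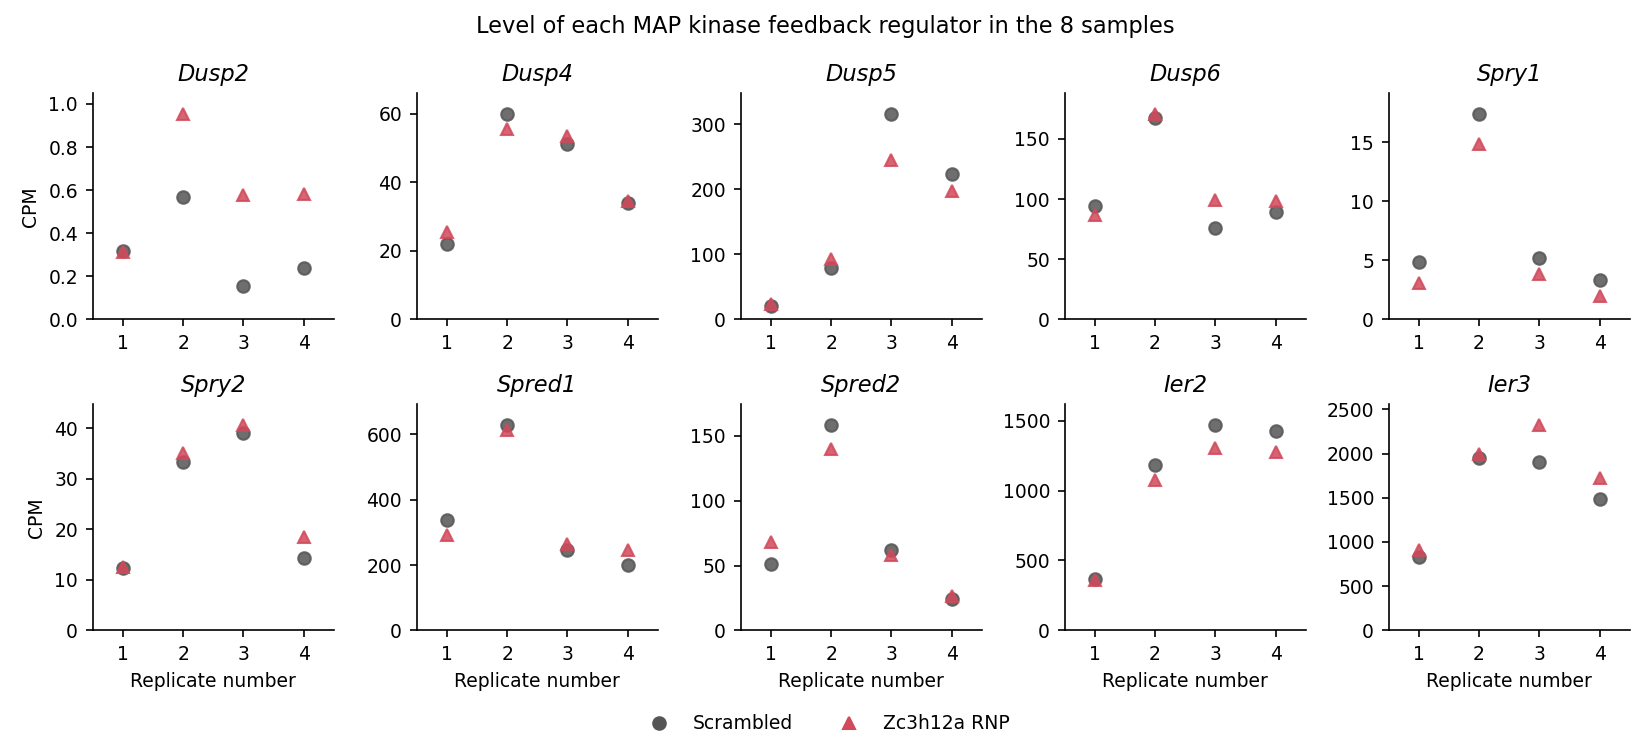
CPM of each of the 10 genes (one panel each, y axis from 0) against the replicate number, for Scrambled (grey circles) and *Zc3h12a* RNP samples (red triangles), one point per sample. For most genes the points of a replicate number lie closer together than the replicate numbers do, as for *Dusp5* between 21.1 and 315 CPM. This does not hold for *Dusp2*, with 0.158 CPM in Scrambled and 0.576 CPM in *Zc3h12a* RNP replicate 3. For *Dusp6* only replicate 2 stands apart.

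None of the 10 genes passed the thresholds between the RNPs. The thresholds were an absolute log2 fold change above 0.5 and a Benjamini-Hochberg adjusted p of 0.05 or less over all genes tested, in edgeR's quasi-likelihood fit blocked on replicate number. By these 0 of 10 were called, beside 0% of all genes tested. DESeq2 and limma-trend also called 0 of 10, and over all 14934 genes they called 60 and 1. DESeq2 gave no adjusted p to *Dusp2* and to some other genes, which it therefore could not call. At an unadjusted p at or under 0.05, 0 of 10 were higher and 1, *Spry1*, was lower, where 2.12% and 4.05% of all genes tested were. *Spry1* had a log2 fold change of -0.51 (SE 0.18), with differences of -0.65, -0.23, -0.45 and -0.71 in pairs 1 to 4, and edgeR's quasi-likelihood test gave an adjusted p of 0.686. *Ier3* came next, with a log2 fold change of 0.17 (SE 0.078) and differences of 0.13, 0.028, 0.28 and 0.22. Its adjusted p in the same edgeR test was 0.856.

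Of the 10 genes, 7 had a positive and 3 a negative log2 fold change, with a median of 0.055 beside 0.038 over all genes tested. *Spry2* and *Ier3* were higher in all 4 pairs (2 of 10, beside 4.98% of all genes tested), and *Spry1* and *Ier2* were lower in all 4 (2 of 10, beside 8.54%). The log2 fold change was 0.13 (SE 0.089) for *Spry2* and -0.13 (SE 0.074) for *Ier2*. The remaining values were 0.044 (SE 0.083) for *Dusp4*, 0.035 (SE 0.099) for *Spred1* and 0.065 (SE 0.11) for *Spred2*. The signs of *Dusp4*, *Dusp5*, *Dusp6*, *Spred1* and *Spred2* turned when 1 replicate number was left out. For 0 of 10 genes the 2 groups did not overlap, beside 0.924% of all genes tested.

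**Figure D3:**
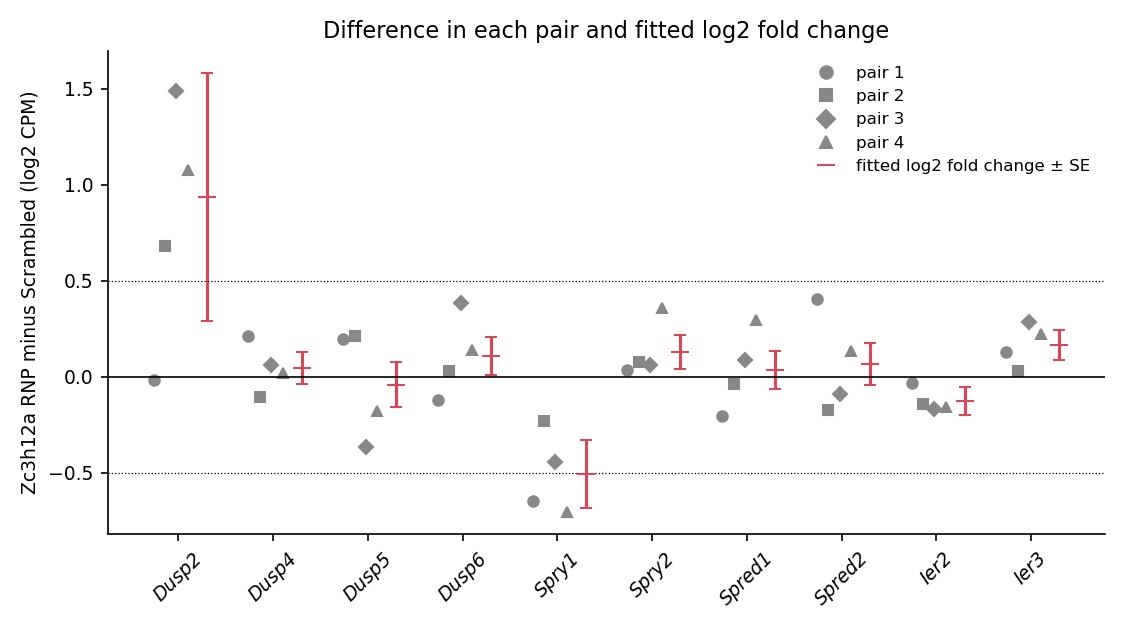
Difference between the *Zc3h12a* RNP and the Scrambled sample of each replicate number (log2 CPM, grey symbols by pair) and the fitted log2 fold change with its SE (red) for the 10 genes, with dotted lines at 0.5 in both directions. *Spry1* (fitted -0.51) and *Ier2* (-0.13) lie below 0 in every pair, and *Spry2* (0.13) and *Ier3* (0.17) lie above 0 in every pair. *Dusp2* spreads widely (SE 0.65). Except for *Spry1* and *Dusp2*, the fitted values lie between the dotted lines.

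Levels of most of the 10 genes differed by replicate number. In the F test of the replicate coefficients of the same edgeR fit, 9 of 10 had an adjusted p at or under 0.05, beside 28% of all genes tested. Since power rises with the count, the same share was taken where the mean log2 CPM exceeded 2. It was 42.5% of 9668 genes, and 9 of the 9 members at that level. The adjusted p of edgeR's F test ran from 0.00043 for *Dusp5* and 0.0006 for *Ier2* to 0.0058 for *Dusp6*, and was 0.628 for *Dusp2*. The means of the 4 replicate numbers, on the log2 CPM scale, spanned 3.62 for *Dusp5*, 2.60 for *Spry1*, 2.56 for *Spred2*, 1.92 for *Ier2*, 1.67 for *Spry2*, 1.49 for *Spred1*, 1.29 for *Dusp4*, 1.27 for *Ier3*, 1.06 for *Dusp2* and 0.96 for *Dusp6*. The lowest sample of both groups had the same replicate number in 8 of 10 genes (48.5% of all genes tested), and the highest in 9 of 10 (48.4%).

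Calls by replicate number were also counted with each replicate number left out, in fits with fewer samples. Why calls were lost was not tested. Without replicate 1, 6 of the 10 remained past the threshold of edgeR's F test, and *Dusp4* (adjusted p 0.0916), *Ier2* (0.474) and *Ier3* (0.463) did not, while the calls over all genes fell from 4181 of 14934 to 1443 of 14994. Without replicate 2, 6 of 9 tested remained, and *Dusp6* (0.842), *Spred1* (0.138) and *Spry1* (0.348) did not, with 2432 of 15082 called over all genes. Without replicate 3 or 4, 9 remained, with 1483 of 14869 and 2878 of 14879 called over all genes. *Dusp5*, *Spry2* and *Spred2* stayed past the threshold in each of these 4 fits. Mast cell markers, taken over all 8 samples, were called by replicate number in 2 of 10 genes (20%). The share was 28% of all genes tested and 42.5% of those with a mean log2 CPM above 2. All markers but *Mrgprb2* (0.778) were above that level. The labels give no meaning to a replicate number beyond a number, so mouse, culture, transfection and library cannot be told apart.

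By the replicate in which they were high, the 10 genes fell into differing patterns. *Dusp5* and *Ier2* were low in replicate 1 and highest in replicate 3. *Dusp6*, *Spry1*, *Spred1* and *Spred2* were highest in replicate 2. *Dusp4*, *Spry2* and *Ier3* were high in both 2 and 3. As a measure of likeness, the root mean square distance between centred log2 CPM over the 8 samples was smallest between *Dusp4* and *Ier3* (0.188) and between *Dusp6* and *Spred1* (0.266), and largest between *Dusp5* and *Spred2* (1.90). The nearest member to *Dusp5* was *Ier2*, at 0.711. *Dusp5* and *Dusp6*, both specific for ERK, were 1.53 apart.

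Over 9668 genes with a mean log2 CPM above 2, the genes most like *Dusp5* by that distance were *Marcksl1* (0.230), *Epm2aip1* (0.346) and *Csrnp1* (0.358). Those most like *Spry1* were *Btg3* (0.261), *Ttll3* (0.355) and *Nab2* (0.385), of which *Nab2* encodes a corepressor of EGR proteins. The genes most like *Spred2* were *Bend3* (0.128), *Pdss1* (0.165) and *Cd24a* (0.168). All distances are over 8 samples that share 4 replicate numbers, and they describe likeness of pattern only.

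Around the 10 genes, 52 others of the pathways were examined in 5 lists, and 50 of them were tested. None was called between the RNPs (0 of 50), beside 0% of all genes tested. At an unadjusted p at or under 0.05 in edgeR's test, 3 were lower and 0 higher, beside 4.05% and 2.12% of all genes tested. Their median log2 fold change was -0.0078, beside 0.038 over all genes tested. The replicate number was called for 28 of the 50 (56%). It was called for 28% of all genes tested and 42.5% of those with a mean log2 CPM above 2. The RAS-ERK cascade itself, from *Grb2* to the RSK kinases (18 genes), had 8 higher and 10 lower between RNPs, a median of -0.0059 on the log2 scale, and 8 called by replicate number (44.4%). The p38 and JNK cascades (10 genes) had 5 higher and 5 lower, a median of 0.018, and 4 called by replicate number (40%).

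ERK-inducible transcription regulators (12 genes) had a median difference of -0.018 on the log2 scale. By replicate number 11 of 12 were called (91.7%), beside 28% of all genes tested. *Egr1*, a zinc finger factor induced by ERK through serum response factor, was at 1446, 4907, 12487 and 7810 CPM in Scrambled replicates 1 to 4 and at 1529, 4529, 8640 and 6299 CPM in *Zc3h12a* RNP replicates 1 to 4. *Egr2* was at 18.7, 289, 937 and 502 CPM and at 43.1, 355, 691 and 524 CPM in the same order. Like *Dusp5* and *Ier2*, both were lowest in replicate 1 and highest in replicate 3. *Junb*, an AP-1 subunit, had the same order and a log2 fold change between RNPs of -0.21 (SE 0.071). It was lower in 4 of 4 pairs, and edgeR's adjusted p was 0.686. The replicate order of *Egr1*, *Egr2* and *Junb* was not that of all 12 genes. Others of the list were highest in replicate 2 or in replicate 4, or lowest in replicate 4, with both RNPs.

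The other MAP kinase phosphatases (6 genes) had 2 higher and 4 lower and a median of -0.096 on the log2 scale. By replicate number 3 were called (50%), beside 28% of all genes tested. *Dusp1*, the nuclear phosphatase with a preference for p38 and JNK, was at 74.1, 119, 257 and 513 CPM in Scrambled and at 39.5, 97.9, 166 and 266 CPM in *Zc3h12a* RNP replicates 1 to 4. It was lower in 4 of 4 pairs, by 0.69 on the log2 scale (SE 0.12), and edgeR's adjusted p was 0.401. The feedback relatives of the other families (6 genes, 4 tested) had 2 higher and 2 lower. *Errfi1*, which encodes an inhibitor of the EGF receptor family, had a log2 fold change of -0.78 (SE 0.19) and was lower in 3 of 4 pairs, with an adjusted p of 0.449 in the same edgeR test. *Dusp1* and *Errfi1* passed the thresholds with DESeq2 (adjusted p 3.04e-06 and 0.000166), with edgeR without the filter on low counts (0.0285 and 0.00947) and without replicate 2 (0.0048 and 2.66e-05). They did not pass with limma-trend (0.422 and 0.466), RLE normalization (0.411 and 0.440), the stricter filter (0.411 and 0.456), without the replicate block (both 1.00), or without replicate 1, 3 or 4 (*Dusp1* 0.635 to 1, *Errfi1* 0.745 to 1). None of the 10 feedback regulators passed under any of these alternatives. *Spred3*, the relative of *Spred1* and *Spred2*, had a log2 fold change of -0.28 (SE 0.13).

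**Figure D4:**
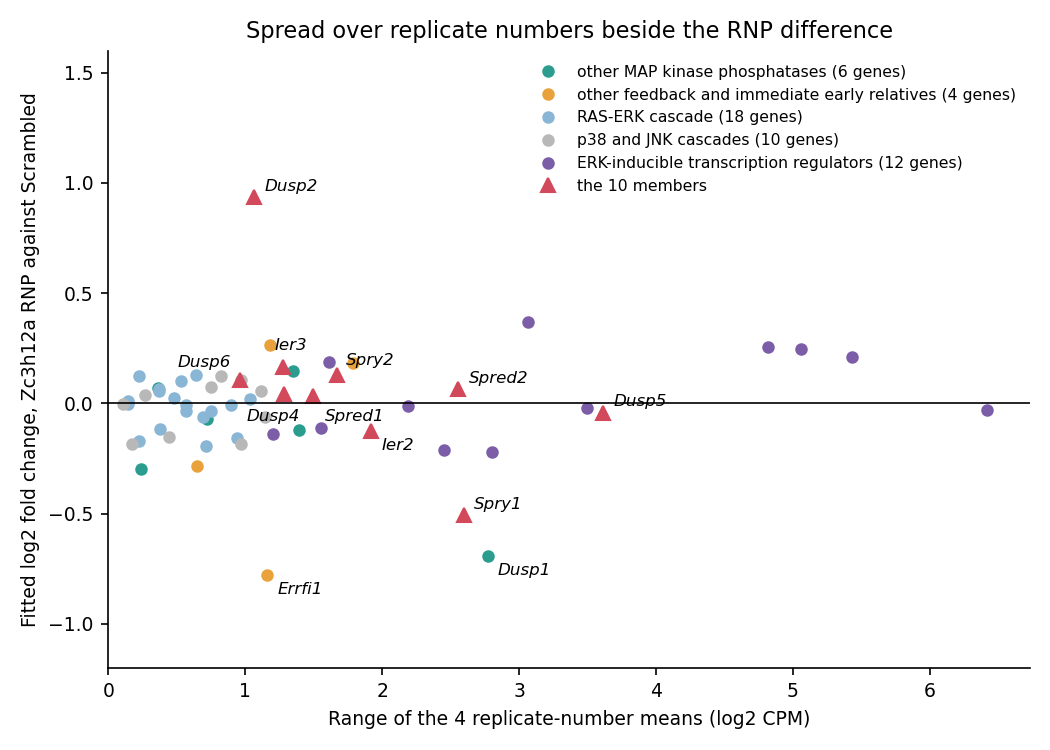
Fitted log2 fold change between RNPs (y axis) against the range of the 4 replicate-number means in log2 CPM (x axis), one point per gene, for the 10 feedback regulators (red triangles, named) and the 50 tested genes of the 5 pathway lists (circles by list). *Dusp5* lies farthest right of the 10 (3.62), and *Dusp1* and *Errfi1* lie lowest (-0.69 and -0.78).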

How the data were processed

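RNA of 8 BMMC samples (4 Scrambled, 4 *Zc3h12a* RNP) was enriched for poly(A) and sequenced. The authors deposited raw counts per gene symbol, which are whole numbers. The submitters' processing notes name FastQC 0.11.9, HISAT2 2.2.1 and featureCounts 2.0.1 with GRCm39. The strand setting and the treatment of reads with several matches are not given in the sources used here. *Dusp2*, *Dusp5*, *Dusp6*, *Spry1*, *Spry2* and *Ier3* overlap exons of opposite-strand genes that have no row in the tables, and reads of such partners could be counted with them. A batch correction by removeBatchEffect is named in the methods, yet the deposited counts carry none.

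Counts were tested in edgeR 4.0.16 (R 4.3.3) with TMM normalization, the filter by group, and a quasi-likelihood fit of replicate number and RNP. Log2 CPM used a prior count of 2. The SE was taken as the absolute log2 fold change over the root of F. Levels per kilobase used the union of exons in GENCODE release 39. Pairing follows the design text (4 mice, both RNPs on the cells of each), although the labels do not say that a number marks a mouse. After centring by group, samples of the same number correlated at 0.595, 0.0752, 0.624 and 0.0414 over all genes tested, where samples of different numbers reached 0.398, above pairs 2 and 4. The values were 0.756, 0.717, 0.728 and 0.719 over 9668 genes with a mean log2 CPM above 2, where different numbers reached at most 0.137. Replicates of a group differed by more than sampling noise (chi-square per degree of freedom at least 58.3).

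The members and lists were chosen with earlier results of these data known. Named genes are the 10 members, at most the 3 genes of each pathway list with the lowest unadjusted p, *Zc3h12a* and some cell type markers. For the 3 members with the largest SD of log2 CPM, the 3 genes nearest in pattern are also named. Alternatives were no block, DESeq2 1.42.0, limma-trend (3.58.1), size-factor (RLE) normalization, other filters, and leaving out each replicate number. The fit was tested on simulated data. Protein sequences were not used here.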

Additional observations from a re-analysis of the deposited data

Results flagged for a closer look

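The measure was taken on CPM and not on the log2 scale. In a group of 4, a sample was picked out by its gap to the nearest of the others, divided by the range of the group. The limit was Dixon's critical value at the 95% level. Over the 22 groups examined (the 10 genes and *Zc3h12a* with each RNP), 5 were picked out. For independent groups of normally distributed values, chance gives about 1 in 20, or 1.1. CPM are skewed, and the groups of a gene share replicate numbers, so the 5 cannot be read as an excess over chance. Replicate 2 was the highest sample by this measure for *Spry1* with both RNPs, at 17.4 CPM in Scrambled (gap over range 0.864) and 14.8 CPM in *Zc3h12a* RNP (0.859). The same held in *Zc3h12a* RNP replicate 2 for *Spred1*, at 612 CPM (0.869), and for *Dusp6*, at 171 CPM (0.852). *Zc3h12a* was low in Scrambled replicate 1, at 24.9 CPM (0.846).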

How the results depend on the processing

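Of 99 values of the 10 log2 fold changes over the alternatives, 90 kept their direction and 9 reversed, all of them near 0. When a replicate number was left out, the log2 fold change ranged from -0.015 to 0.16 for *Dusp4* (negative without replicate 3), -0.067 to 0.020 for *Dusp5* (positive at 0.020 without replicate 3 and 0.0060 without replicate 4), -0.037 to 0.23 for *Dusp6* (negative without replicate 3), -0.052 to 0.16 for *Spred1* (-0.036 without replicate 3 and -0.052 without replicate 4) and -0.0067 to 0.21 for *Spred2* (negative without replicate 1). *Dusp2* was not tested without replicate 2 and had no adjusted p with DESeq2. Without the replicate block, *Spred1* (-0.00068) and *Spred2* (-0.016) reversed, and 0 genes were called, as with the block. No member was called between RNPs under any alternative, and the lowest adjusted p of any was 0.691 (*Spry1*). Over all genes, the calls between RNPs rose from 0 to 60 with DESeq2, 40 without the filter and 1 each with limma-trend and RLE normalization, and were 0 to 137 when a replicate number was left out, with 137 without replicate 2. The pathway lists then had 2 calls with DESeq2, 2 without the filter, and 0 to 2 when a replicate number was left out. *Zc3h12a* reversed without replicate 4 (-0.075 to 0.0062 over the 4 fits). Genes called by replicate number were 4181, and 2364 with RLE normalization and 1443 to 2878 when a replicate number was left out. The members so called were 9, and 6 to 9 when one was left out. The cause was not tested, other than that fits without a replicate number have fewer samples. With 4 to 22 counts per sample, *Dusp2* allows no statement on a difference at this depth.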
